A study of Oryza sativa with 6 samples.

Results

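The data described here are the miR393 and miR394 entries of a small RNA survey of rice leaves. Every row of the deposited miRNA table named for miR393 or miR394 was taken, for both arms of the hairpin and any species prefix, which gave 4 of 479 miRNA names. These were osa-miR393a and osa-miR393b-3p for miR393, and osa-miR394 and osa-MIR394-p3 for miR394. The libraries came from leaves of CA21, a glyphosate-tolerant rice line obtained by mutagenesis of the variety Zhejing30 followed by crosses with the sensitive line P1003, without a transgene. Seedlings at the third-leaf stage were sprayed with the herbicide glyphosate at 2 mg per ml (GLY) or received no treatment (CK), and each group had 3 libraries. Leaves were collected after sprayed plants of P1003 had died, and only CA21 was sequenced, so both groups share the CA21 background and no sensitive line is in the comparison. Nothing in the labels ties the libraries to separate plants, and the spread between them, which the p-values measure, may be technical.

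miR393 and miR394 are old plant miRNA families whose main targets are messages of F-box proteins, the subunits that give SCF ubiquitin ligases their choice of substrate. miR393 directs cleavage of the TIR1/AFB auxin receptor messages, in rice those of OsTIR1 and OsAFB2, and so sets how strongly cells respond to auxin. miR394 acts on LCR (LEAF CURLING RESPONSIVENESS) in Arabidopsis, where it takes part in shoot meristem maintenance and leaf shape, and on the related F-box gene LC4 in rice, which affects leaf inclination. The 3p strand of miR393 has been assigned a target of its own in Arabidopsis, the Golgi SNARE gene MEMB12, in the response to bacteria.

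The 4 deposited sequences are shown so that the arms of each family can be compared. They are written 5′ to 3′ as in the table, with T for U and with the seed (bases 2 to 8) in capitals.
osa-miR393a: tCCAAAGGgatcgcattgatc
osa-miR393b-3p: tCAGTGCAatccctttggaat
osa-miR394: tTGGCATTctgtccacctcc
osa-MIR394-p3: aGGTGGGCatactgccaatgg
The 4 seeds differed from one another, and 0 other names in the table carried any of them. The closest other entry to osa-miR394 needed 7 base edits, and the closest to osa-miR393a needed 9. osa-miR393a was listed on 2 identical rows and each of the others on 1 row, and in some libraries its estimated number of reads was not whole (505.5 in CK 1). osa-miR394 was 20 nt long, a length held by 24 of the 479 names (5.01%), and the other entries were 21 nt. The first base was T in osa-miR393a, osa-miR393b-3p and osa-miR394, as in 38.8% of all names, and A in osa-MIR394-p3.

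Each pair of arms folded together as the strands of a miRNA duplex do. For osa-miR393a and osa-miR393b-3p, RNAduplex found 18 base pairs, 1 of them G-U, with 1 unpaired base inside the duplex on each strand and an overhang of 2 bases at both 3′ ends, at a predicted energy of -28.9 kcal per mol. For osa-miR394 and osa-MIR394-p3 it found 15 base pairs, 1 of them G-U, with 3 unpaired bases inside the duplex on each strand, overhangs of 2 and 3 bases, and -23.1 kcal per mol. The p3 entry is thus the strand opposite to the mature miR394. No genome positions are given, since a genome and its miRNA genes were not used here.

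The sum of values per library ranged from 136071 to 177269, and the miRNA reads estimated from the worth of 1 read ranged from 97902 in GLY 3 to 304753 in CK 3. GLY 2 stood apart from the other sprayed libraries. Across the 251 miRNAs that passed the filter (3 or more libraries at a value of at least 10), log2 values correlated at 0.939 to 0.972 among CK libraries and at 0.928 for the pair GLY 1 and GLY 3. The correlation of GLY 2 with GLY 1 was 0.640 and with GLY 3 it was 0.557. The fold changes, arm shares, coefficients of variation and likeness measures below are therefore given with and without GLY 2. The reproductive phasiRNA trigger families miR2118 and miR2275, listed as markers of another tissue, took up 0.0604% to 0.0944% of the CK libraries and 0.221%, 0.0261% and 0.347% of GLY 1, GLY 2 and GLY 3. Most of this in every library was 1 entry of 19 nt, osa-MIR2118e-p5_2ss13TA19CT. The 22-nt entries osa-miR2118e, osa-miR2118o_1ss1CT and osa-miR2118d_1ss17TA were listed at 0 in all GLY libraries and at 10.1 or less in CK. The 22-nt gma-miR2118a-3p_R+1 and the 21-nt zma-miR2275b-5p_1ss12CG went the other way. They were at 25.8 and 10.3 in GLY 3 and at 0 in all other libraries. Entries of the families miR5072, miR5077, miR5139 and miR8175, which are held to overlap tRNA or rRNA fragments, were listed as a sign of RNA quality. They took up 0.0597% to 0.172% of the CK libraries and 0.585%, 0.0447% and 1.08% of GLY 1, GLY 2 and GLY 3. Most of the GLY 1 and GLY 3 share came from osa-miR5072_L-4 and osa-miR5077_L-1_1ss5GA. The list does not measure all fragment RNA: in the study's own read classes the rRNA share of raw reads was highest in GLY 1 and lowest in GLY 3. In the same classes, valid reads made up a smaller share of raw reads in every GLY library than in any CK library.

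osa-miR393a, the 5p strand that pairs with the auxin receptor messages, was at a similar level in both groups. Its normalized count in unsprayed leaves was 445 (CK 1), 422 (CK 2) and 554 (CK 3), and in sprayed leaves it was 520 (GLY 1), 295 (GLY 2) and 563 (GLY 3). GLY 2 was the lowest of all libraries, GLY 1 lay inside the CK range, and GLY 3 was close to CK 3. The mean was 474 ± 70.4 (SD, n = 3) in CK and 459 ± 144 in GLY, and the limma log2 fold change was -0.09 ± 0.35 (SE), with a 95% interval of -0.95 to 0.77 and an adjusted p of 0.888. The interval does not show that the level was the same: it admits changes of either direction. Without GLY 2 limma gave a log2 fold change of 0.20 and an adjusted p of 0.494.

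osa-miR393b-3p, the opposite strand, had the higher value of the pair in all 6 libraries. Here, as in all values given, 1 of the 2 identical osa-miR393a rows was counted. If reads were split over those 2 rows, counting both could change that order, which was not tested. Its normalized count in unsprayed leaves was 645 (CK 1), 549 (CK 2) and 786 (CK 3), and in sprayed leaves it was 555 (GLY 1), 569 (GLY 2) and 931 (GLY 3). On the deposited scale GLY 2 lay beside GLY 1, both inside the CK range, and GLY 3 was highest. As a share of the library GLY 2 was the lowest of the 6, at 0.321% against 0.357% to 0.553% in the others, and it was also lowest with TMM factors, while CK 2 was lowest with median-of-ratios factors and with scaling by valid reads. The mean was 660 ± 119 (SD, n = 3) in CK and 685 ± 213 in GLY. The log2 fold change by limma was 0.03 ± 0.33 (SE), with a 95% interval of -0.78 to 0.83 and an adjusted p of 0.958, and without GLY 2 it was 0.14, with an adjusted p of 0.719. Summed over both strands, miR393 reached 1134 ± 188 in CK and 1144 ± 321 in GLY, a ratio of means of 1.01 (limma adjusted p of 0.986 over 90 families).

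osa-miR394, the strand that pairs with the LCR-type F-box message, was the most abundant of the 4 entries in CK 1, CK 2, CK 3, GLY 1 and GLY 3, and the one with the widest spread among the abundant 3. Its normalized count in unsprayed leaves was 672 (CK 1), 865 (CK 2) and 1326 (CK 3), and in sprayed leaves it was 1386 (GLY 1), 272 (GLY 2) and 1912 (GLY 3). GLY 1 and GLY 3 lay above all CK libraries and GLY 2 below all of them, so the sprayed libraries enclosed the CK range. From GLY 2 to GLY 3 the value differed 7.03-fold, against 1.97-fold across the CK libraries. The mean was 955 ± 336 (SD, n = 3) in CK and 1190 ± 837 in GLY, and the limma log2 fold change was -0.03 ± 0.78 (SE), with a 95% interval of -1.93 to 1.87 and an adjusted p of 0.976. The ratio of the means (1.25) and the fitted difference of mean logs (-0.03) differ in direction, because the low GLY 2 value weighs more on the log scale.

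Without GLY 2 the mean of osa-miR394 in GLY was 1649, or 1.73 times that of CK, and the limma log2 fold change was 0.83 ± 0.35 (SE), with an unadjusted p of 0.0523 and an adjusted p of 0.0875. It was not called there either, while 49.8% of all tested miRNAs were called without GLY 2 and 15.5% were called higher. The adjusted p ranged from 0.0875 to 0.984 over all alternatives.

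osa-MIR394-p3, the opposite strand of the miR394 hairpin, was rare, and it was the entry with the highest ratio of sprayed to unsprayed leaves. Its normalized count in unsprayed leaves was 5.29 (CK 1), 8.77 (CK 2) and 15.7 (CK 3), and in sprayed leaves it was 23.7 (GLY 1), 12.0 (GLY 2) and 39.6 (GLY 3). GLY 1 and GLY 3 lay above every CK library and GLY 2 lay between CK 2 and CK 3. These values correspond to about 6, 10 and 29 reads in CK and 27, 8 and 23 reads in GLY, so single libraries rest on few reads. The mean was 9.91 ± 5.29 (SD, n = 3) in CK and 25.1 ± 13.9 in GLY, a ratio of 2.53, and the limma log2 fold change on the log2(value + 1) scale was 1.22 ± 0.73 (SE), with an adjusted p of 0.338. Without GLY 2 the limma log2 fold change was 1.65, with an unadjusted p of 0.0342 and an adjusted p of 0.0635. It was not called there, where 15.5% of all tested miRNAs were called higher.

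**Figure D1:**
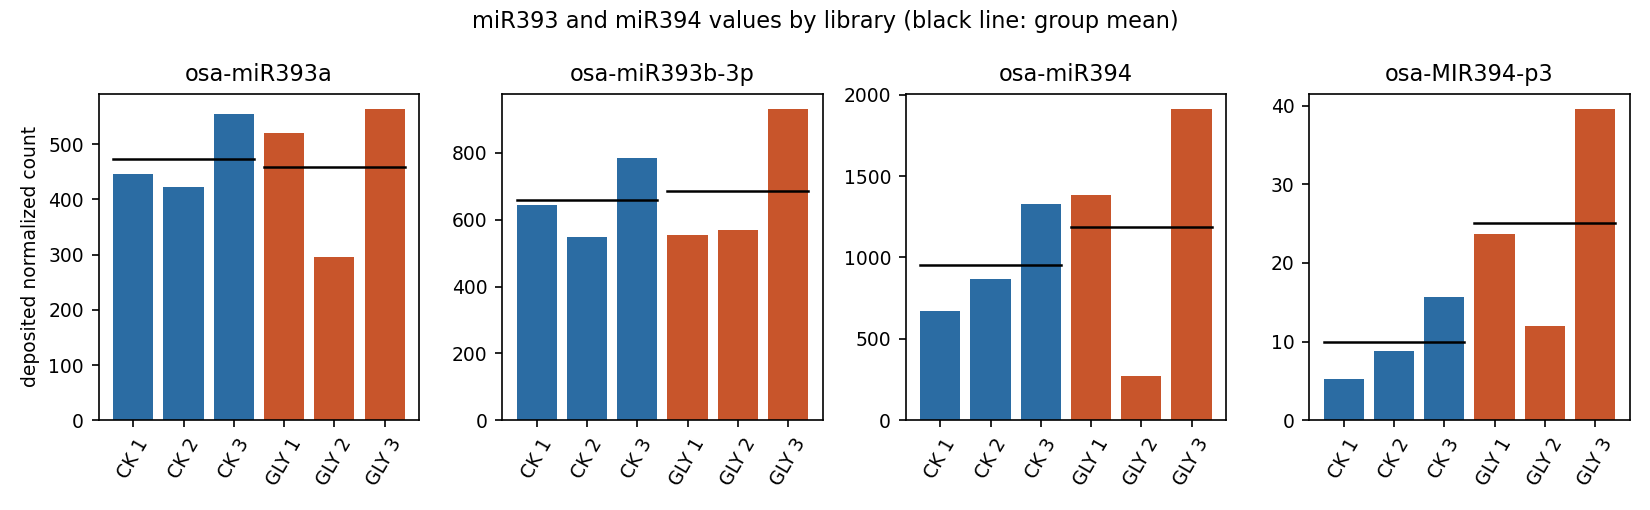
Bars give the deposited normalized count of each miR393 and miR394 entry in each library (CK unsprayed in blue, GLY sprayed in orange), each panel on its own axis from 0, and black lines give the group means. On this scale GLY 2 is the lowest library for osa-miR393a (295) and osa-miR394 (272) but not for osa-miR393b-3p (569) or osa-MIR394-p3 (12.0).

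The comparison of sprayed with unsprayed leaves thus called 0 of the 4 entries with limma at an adjusted p under 0.05, where 11.2% of the 251 tested miRNAs were called. With all 6 libraries the unadjusted limma p of the 4 entries ranged from 0.143 to 0.968. All 4 entries had overlapping groups, against 35.9% of tested miRNAs without overlap. Neither family sum was called, where 8.89% of the 90 tested families were. The miR394 sum was 965 ± 341 (SD, n = 3) in CK and 1215 ± 851 in GLY (limma adjusted p of 0.992), and without GLY 2, when 52.2% of families were called, its limma adjusted p was 0.0763. Over all tested miRNAs the log2 fold change had a median of -0.46. With all 6 libraries the 4 entries lay above it, at the percentiles 60.2 (osa-miR393a), 63.7 (osa-miR393b-3p), 62.5 (osa-miR394) and 87.3 (osa-MIR394-p3). Over the deposited scaling and 4 others the median ranged from -0.60 to -0.19, and the fold changes relative to it stayed between 0.31 and 0.38 for osa-miR393a, 0.43 and 0.49 for osa-miR393b-3p, 0.37 and 0.43 for osa-miR394, and 1.60 and 1.69 for osa-MIR394-p3. A scaling multiplies all values of a library by 1 factor, so it could move this place only through the added 1 and the filter. The narrow ranges over scalings are therefore not read as stability. Leaving out single libraries did move it. Without GLY 3, osa-miR393a, osa-miR393b-3p and osa-miR394 lay below the median of all tested miRNAs, by -0.09, -0.05 and -0.41 on the log2 scale, and without GLY 1 osa-miR394 did so by -0.06. Without GLY 2 they lay 0.83, 0.77 and 1.46 above it. With no filter on low values osa-miR393a was level with the median (-0.0059). osa-MIR394-p3 lay above the median in all 16 settings that tested it, by 0.999 to 2.29. The sign of the fold change itself was not stable for osa-miR393a, osa-miR393b-3p and osa-miR394, which turned in at least 1 scaling each.

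**Figure D2:**
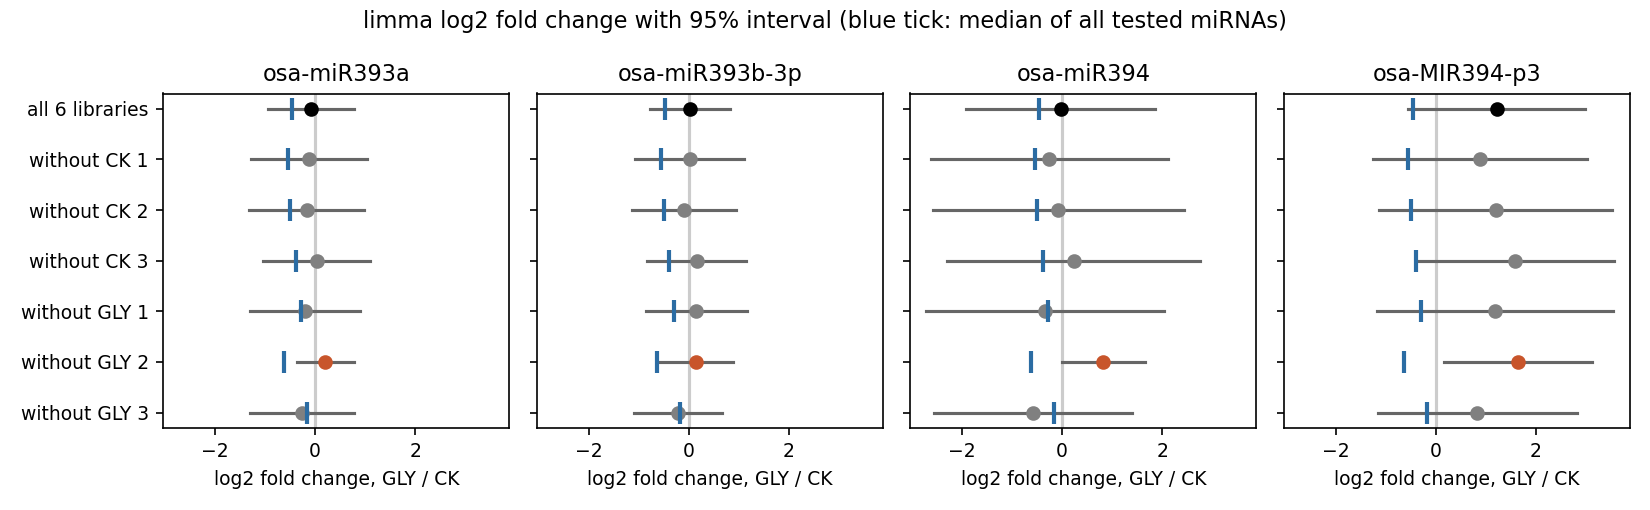
Points give the limma log2 fold change of GLY over CK with its 95% interval (horizontal line) for all 6 libraries and without each library in turn, and blue ticks give the median of all 251 tested miRNAs in the same fit. Leaving out GLY 2 (orange) moves osa-miR394 from -0.03 to 0.83, more than any other library does, and osa-miR393a from -0.09 to 0.20.

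The place of GLY 2 differed between the strands of each family. On the log2(value + 1) scale GLY 2 lay 2.58 below the mean of GLY 1 and GLY 3 for osa-miR394, at percentile 5.18 of the 251 tested miRNAs, while the median of all of them was 0.13 above. The same difference was -0.87 for osa-miR393a, -0.34 for osa-miR393b-3p and -1.29 for osa-MIR394-p3. The order of osa-miR394, with GLY 1 and GLY 3 above all CK libraries and GLY 2 below all of them, was shared by 9 tested miRNAs (3.59%), itself included, whereas 57 (22.7%) showed the mirror order. Among the 9 were osa-miR5072_L-4, with 69.6, 64.9 and 23.2 in unsprayed and 403, 0 and 819 in sprayed leaves, and osa-miR5077_L-1_1ss5GA, with 92.5, 129 and 48.6 in unsprayed and 460, 17.9 and 926 in sprayed leaves, both from the families of tRNA or rRNA overlap. The other entries of those families did not have this order: ath-miR8175_L+3_1ss5AT stood at 58.2, 55.2 and 26.5 in unsprayed and 44.8, 61.3 and 68.8 in sprayed leaves, and rgl-miR5139_L+3 at 7.05, 5.26 and 0 in unsprayed leaves and at 0 in all sprayed libraries. The 19-nt entry osa-MIR2118e-p5_2ss13TA19CT was another of the 9, with 98.7, 120 and 77.8 in unsprayed and 343, 46.3 and 549 in sprayed leaves. The rest, outside the listed marker families, were osa-miR159a.1, osa-miR167e-3p, osa-miR3982-3p_L+1R-1, PC-3p-54008_121 and PC-5p-65879_74. The part of RNA quality or of another tissue in the spread of osa-miR394 was not tested.

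**Figure D3:**
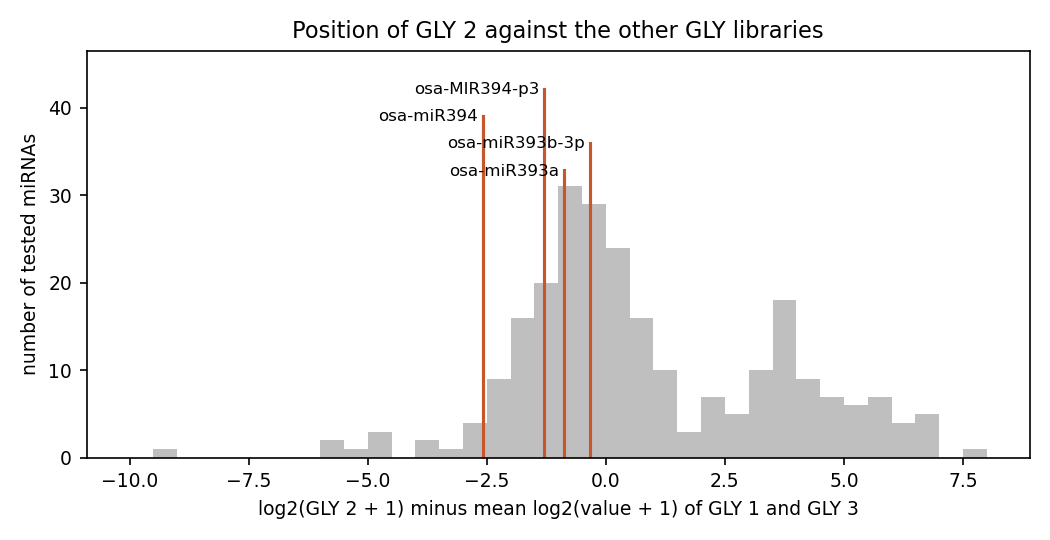
The histogram counts the 251 tested miRNAs by the log2(value + 1) of GLY 2 minus the mean of GLY 1 and GLY 3, and vertical lines mark the miR393 and miR394 entries. osa-miR394 lies in the low tail at -2.58 and osa-miR393b-3p near the centre at -0.34.

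The balance of the arms within a library does not depend on how libraries were scaled. For miR394 the 3p strand made up 0.780% (CK 1), 1.003% (CK 2) and 1.17% (CK 3) of the hairpin in unsprayed leaves. In sprayed leaves it made up 1.68% (GLY 1), 4.21% (GLY 2) and 2.03% (GLY 3). All sprayed libraries lay above all unsprayed ones. The mean was 0.984% ± 0.195 (SD, n = 3) in CK and 2.64% ± 1.37 in GLY, with a two-sided exact permutation p of 0.1, which is the smallest that 3 libraries against 3 can give, so a threshold of 0.05 could not be reached. In GLY 2 the high share came with a low osa-miR394 and about 8 reads of the 3p strand, and without GLY 2 the GLY mean was 1.86%. Of the 44 hairpins with both arms tested, 11.4% had a share of the minor arm that was higher in GLY without overlap, 6.82% one that was lower without overlap, and 47.7% a higher mean share in GLY. For miR394 the mean share in GLY was 2.68 times that in CK, the highest ratio among the 43 hairpins whose minor arm was above 0 in CK. Without GLY 2 the ratio was 1.89 and ranked 3 among them. The median ratio of the 43 hairpins was 0.966.

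For miR393 the strands were of comparable abundance when 1 of the 2 identical osa-miR393a rows was counted. The ratio of osa-miR393b-3p to osa-miR393a was 1.45 (CK 1), 1.30 (CK 2) and 1.42 (CK 3) in unsprayed leaves, and 1.07 (GLY 1), 1.93 (GLY 2) and 1.65 (GLY 3) in sprayed leaves. It was close to constant in CK and spread to both sides in GLY, where GLY 1 was the lowest and GLY 2 the highest of all libraries. The 3p strand took up 58.1% ± 1.38 (SD, n = 3) of the pair in CK and 59.9% ± 7.40 in GLY (two-sided exact permutation p of 0.8), and without GLY 2 its GLY mean was 57.0%. The 5p sequence can come from more than 1 hairpin, so this ratio compares strands of the family and not of a single hairpin. The level of the ratio, and of the miR393 sum, also depends on whether 1 osa-miR393a row or both are counted.

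**Figure D4:**
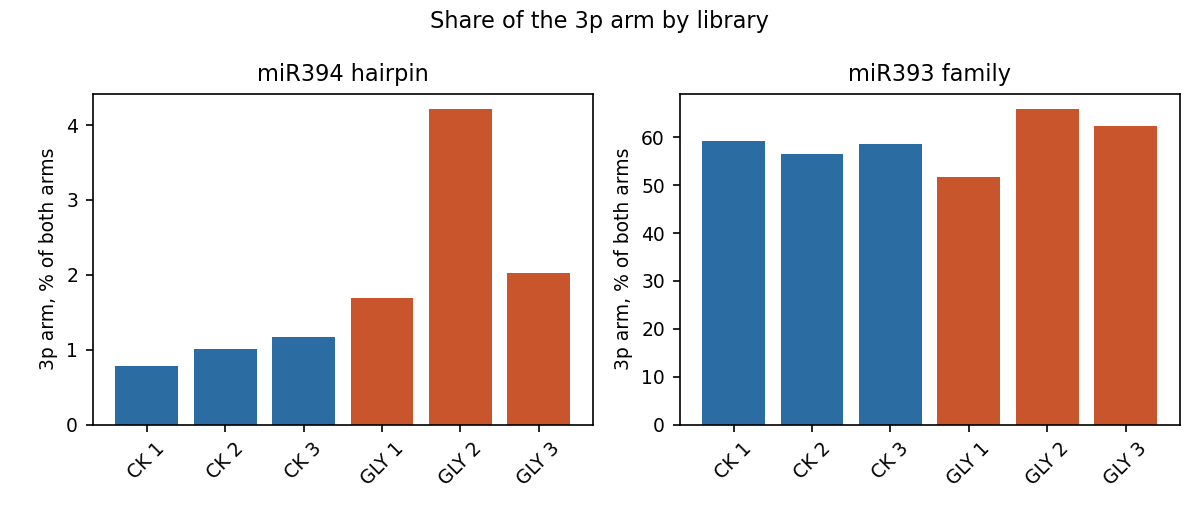
Bars give the 3p strand as a percentage of both strands in each library, for the miR394 hairpin (osa-MIR394-p3 of osa-MIR394-p3 plus osa-miR394) and for miR393 (osa-miR393b-3p of osa-miR393b-3p plus osa-miR393a), each axis from 0. The miR394 share is 0.780% to 1.17% in CK and 1.68% to 4.21% in GLY, while the miR393 share overlaps between groups.

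In relative abundance, osa-miR394 made up 0.494% to 0.805% of the CK libraries and ranked between 22 and 28 among all names there. It ranked 20 in GLY 1 and 18 in GLY 3 but 73 in GLY 2, where its share was 0.153%. osa-miR393b-3p ranked between 29 and 39 in CK and between 27 and 48 in GLY. osa-miR393a ranked 42 to 46 in CK, 39 in GLY 1 and GLY 3, and 69 in GLY 2. osa-MIR394-p3 ranked no higher than 137. The coefficient of variation of osa-miR393a was 14.9% in CK and 31.3% in GLY, that of osa-miR393b-3p 18.1% and 31.1%, and that of osa-miR394 35.2% and 70.4%, where the medians of all tested miRNAs were 25.8% and 56.2%. In CK the miR393 strands varied less than the median miRNA and osa-miR394 more. The GLY values of osa-miR393a and osa-miR394 rest on GLY 2, and that of osa-miR393b-3p does not. Over GLY 1 and GLY 3 alone, an alternative chosen after seeing the data, the coefficient was 5.71% for osa-miR393a, 35.8% for osa-miR393b-3p and 22.5% for osa-miR394. The median over all tested miRNAs was then 22.4%, so osa-miR394 was level with it and osa-miR393b-3p above it. For osa-MIR394-p3 the coefficient was 53.4% in CK, 55.2% in GLY and 35.4% over GLY 1 and GLY 3. With 1 osa-miR393a row counted, the order of the means in CK was osa-miR394, osa-miR393b-3p, osa-miR393a and osa-MIR394-p3. The ranges of osa-miR394 and osa-miR393b-3p overlapped, as did those of osa-miR393b-3p and osa-miR393a, and only osa-MIR394-p3 stood clear below the rest.

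Likeness to other miRNAs was measured by the Pearson correlation of log2(value + 1) over the 6 libraries, leaving out miR393 and miR394 entries, as a description without a test. The entry most like osa-miR394 was PC-5p-65879_74 (0.982), a miRNA predicted by the authors, followed by PC-3p-54008_121 (0.943) and osa-miR399d_R-1 (0.941), a phosphate-responsive family. PC-5p-65879_74 was also most like osa-miR393a (0.972), followed by osa-miR1437a_R-1 (0.926) and PC-3p-54008_121 (0.915). osa-miR394 and osa-miR393a thus had nearest neighbours in common, entries that were lowest in GLY 2 and highest in GLY 3. For osa-miR393b-3p the likeness was weaker, with osa-miR1425-5p (0.860), osa-miR530-3p (0.812) and osa-miR167a-3p_R-1 (0.809). For osa-MIR394-p3 the nearest were osa-MIR167g-p3 (0.986), osa-miR528-3p (0.976) and osa-MIR159a-p5 (0.975), all from the strand opposite to the main miRNA of their hairpin. Over the 5 libraries without GLY 2, likewise chosen after seeing the data, PC-5p-65879_74 was still the nearest to osa-miR394 (0.988), while PC-3p-54008_121 fell to rank 20 and osa-miR399d_R-1 to rank 34. For osa-miR393a, PC-5p-65879_74 was then at rank 7 (0.883) and osa-miR1437a_R-1 at rank 51 (0.619), and the nearest was osa-miR159a.1 (0.935). The nearest to osa-miR393b-3p was osa-miR827 (0.938), with osa-miR1425-5p at rank 3 (0.880). The nearest to osa-MIR394-p3 was osa-miR528-3p (0.993), with osa-MIR167g-p3 at rank 3 (0.987).

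miR160, miR167 and miR390 act beside miR393 in auxin response: miR160 and miR167 cut messages of auxin response factors, and miR390 starts the tasiRNAs that silence others. Of 21 tested names of these families, 1 was called higher and 3 lower by limma, where 7.57% of all tested miRNAs were called higher and 3.59% lower. Of these 4 calls, 3 (osa-MIR167f-p3, osa-MIR167c-p3 and osa-miR390-3p_L+3) passed the filter on low values only through the group in which they were high, so they had to differ, and nothing is read from their count. Of the 21 names, 4 passed through 1 group alone. Of the other 17 names 1 was called, where 19 of 240 miRNAs that did not pass through 1 group alone were called. The median log2 fold change of the 21 names, those 4 included, was -0.63, beside -0.46 over all tested miRNAs. osa-miR160f-5p stood at 1287, 1223 and 1679 in unsprayed and at 589, 261 and 456 in sprayed leaves (limma adjusted p of 0.0366). Its groups did not overlap, as was so for 35.9% of tested miRNAs. osa-miR390-3p_L+3 and osa-MIR167c-p3 were both at 0 in the sprayed libraries and between 13.5 and 22.03 in the unsprayed ones. osa-MIR167f-p3, the entry called higher, had values of 0, 0 and 9.19 in unsprayed and of 109, 191 and 196 in sprayed leaves. The calls changed with the library left out, and so did those of the whole table, whose called share is in brackets. Leaving out GLY 2 gave 3 higher and 9 lower (49.8%), GLY 1 gave 4 lower (8.37%) and GLY 3 gave 2 lower (5.58%). Leaving out CK 3 gave 1 higher (3.59%), and leaving out CK 1 or CK 2 gave 0 (0.797% each). These counts include the names that passed through 1 group alone, so nothing is read from them about these families. As a family sum, miR160 had 3122, 3477 and 4360 in unsprayed and 1963, 878 and 2190 in sprayed leaves. It missed the threshold (limma adjusted p of 0.151). The miR393 sum was 1090, 971 and 1340 in unsprayed and 1075, 864 and 1494 in sprayed leaves. Whether miR393 and miR160 differed in their response was not tested.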

How the data were processed

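Small RNA libraries of rice leaf (3 CK, 3 GLY) were made by the authors with the TruSeq kit and sequenced single-end. They removed adaptors, reads shorter than 18 nt and other RNA classes, and assigned reads to miRBase precursors with ACGT101-miR (version: not given in the sources used here). Per the file headers the deposited signal values are normalized counts, 1 per miRNA name and library. Their scaling was not given in the sources used here.

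Of 582 rows, 103 exact repeats were dropped. Each library's worth of 1 read was taken from the step of values under 60, of which 78.5% to 83.5% were whole within 0.01. This is too few for a count model, so reads are estimates and no counting interval is given. The planned replacement, limma 3.58.1 in R 4.3.3 (trend and robust options) on log2(value + 1), was fitted to the 251 names that reached a value of 10 in 3 or more libraries, with Benjamini-Hochberg adjustment over all of them. Family sums were fitted likewise. Adding 1 understates changes of low values. Ratios were compared by exact permutation, and duplexes by RNAduplex of ViennaRNA 2.7.2.

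All miR393 and miR394 rows were named, with the 3 most similar miRNAs of other families for each and the called auxin-related names. Members and lists were chosen with earlier results of these data known. Alternatives were pseudocounts of 0.5 and 5, other filters, 4 other scalings, plain empirical Bayes, a replicate block and leaving out each library.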

Additional observations from a re-analysis of the deposited data

How the results depend on the processing

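No alternative called any miR393 or miR394 entry or family sum, and osa-MIR394-p3 was higher in GLY in every alternative that tested it (it failed the filter of 20). The fold changes near 0 changed sign with the scaling. With TMM factors the log2 fold change was 0.0030 for osa-miR393a, 0.060 for osa-miR394, 0.081 for the miR393 sum and 0.084 for the miR394 sum. With median-of-ratios size factors these were 0.12, 0.18, 0.20 and 0.20, and with scaling by the library's valid reads, as the study counts them, 0.12, 0.18, 0.20 and 0.21. With equal totals osa-miR393b-3p was at -0.13. Leaving out 1 library gave ranges of -0.26 to 0.20 for osa-miR393a, -0.22 to 0.16 for osa-miR393b-3p, -0.58 to 0.83 for osa-miR394, 0.83 to 1.65 for osa-MIR394-p3, -0.22 to 0.17 for the miR393 sum and -0.55 to 0.84 for the miR394 sum. The number of miRNAs called over the whole table, 28 in all libraries, was 12 with scaling by valid reads and ranged from 2 to 125 without 1 library, the last without GLY 2. The deviations of same-numbered libraries correlated at -0.39, 0.09 and 0.47 for numbers 1, 2 and 3, and those of differently numbered ones at -0.48 to 0.51, so the numbers were taken as names only. A replicate block gave 6 calls and changed no call among these entries. Depth limits osa-MIR394-p3, with 6 to 29 estimated reads a library. The cause of these dependences was not tested.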
